A study of Mus musculus with 2 samples.

Results

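Long intergenic non-coding RNAs (lincRNAs) are transcripts from between protein-coding genes with no known protein product. The expressed lincRNAs of the postnatal mouse hippocampus other than a named set of well-known ones are described here. A gene was selected when every one of its annotated transcripts is a lincRNA and its level was at least 2 TPM in the gene table of each library, where TPM is a level corrected for transcript length and scaled to the same total in each library. Of 55536 genes in the tables, 5844 have only lincRNA transcripts, and 167 of these reached the minimum. A set of 11 well-known leaders (Malat1, Neat1, Miat, Meg3, Mirg, Rmrp, Gm26917 and 4 genes whose symbols start with Snhg) was left out, which gave 156 selected genes. These were left out by name and not by level, and some were lower than many selected genes. Levels chose these genes, so the levels below are a description and carry no test.

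The tissue was the hippocampus of male B6CASTF1/J mice (F1 hybrids between the C57BL/6J and CAST/EiJ strains) aged 14 days. Total RNA was sequenced in 2 libraries, replicates 1 and 2 of the only group, each listing 3 males and 300 ng of starting RNA. Nothing was compared with another genotype, treatment or age, and whether the RNA of the listed males was pooled is not stated in the labels. The libraries held 29144848 and 31755544 gene counts, and the smallest counts of a selected gene were 14 and 15. Fewer cells of a type and less RNA per cell cannot be told apart in such bulk tissue. Markers of excitatory neurons summed to 2730 and 2962 TPM, those of interneurons to 308 and 417 TPM and those of astrocytes to 1692 and 1691 TPM in replicates 1 and 2. The libraries stood apart in markers of myelinating oligodendrocytes, at 1638 and 874 TPM.

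LincRNAs act in several ways that bear on these genes. Some bind microRNAs, short RNAs that recognise targets mainly through their seed (bases 2 to 8), some bind proteins, some are the precursors from which microRNAs are cut, and others are known only as transcripts beside a coding gene. In neurons the best-studied circuit links miR-7 with a circular RNA from the Cdr1as locus, dense in miR-7 sites, and with Cyrano, whose single extensively paired site triggers the destruction of miR-7. The Cyrano gene and the linear gene that spans the Cdr1as locus are selected genes.

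The first pair of sequences below is the microRNA that these sites pair with. The other 3 each have a locus inside a selected gene described further on. Levels of mature microRNAs are not given here, so whether they are cut from these genes was not tested. They come from RefSeq (GRCm38.p6), are written 5′ to 3′, and carry the seed in capitals. The miR-7 pair shares the seed GGAAGAC, and each of the other 3 has a seed of its own.
miR-7a-5p: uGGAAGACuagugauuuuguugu
miR-7b-5p: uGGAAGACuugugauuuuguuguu
miR-9-5p: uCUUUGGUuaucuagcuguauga
miR-129-5p: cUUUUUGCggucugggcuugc
miR-138-5p: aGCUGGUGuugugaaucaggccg

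The Cyrano transcript 1700020I14Rik-202 and the leading transcript of the Cdr1as locus, C230004F18Rik-206, both hold the miR-7 seed match GTCTTCC. The sites below are the best paired of the 2 matches in Cyrano (chr2:119602137-119602162, plus strand, mm10) and of the 123 matches in C230004F18Rik-206 (chrX:61183663-61183688, plus strand, mm10). Capitals mark the seed match at the right and, at the left, the longest run that pairs with the rest of miR-7a.
Cyrano: ACAACAAAATCACcaatGTCTTCCat
C230004F18Rik: tcttccACAAAATtcagGTCTTCCag
The left run in Cyrano is 13 bases long and pairs with bases 11 to 23 of miR-7a, whereas the longest in C230004F18Rik is 7 bases and pairs with bases 14 to 20. The density of matches differs the other way. A window of 120 bases of C230004F18Rik-206 (chrX:61183660-61183779, plus strand, mm10), chosen for the most matches in the part of the exon outside Cdr1, holds 7 of them, shown in capitals.
C230004F18Rik window: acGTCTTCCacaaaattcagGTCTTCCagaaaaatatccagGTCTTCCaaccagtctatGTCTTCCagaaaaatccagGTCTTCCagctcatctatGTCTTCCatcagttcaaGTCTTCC

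C230004F18Rik (ENSMUSG00000071753.12, chrX:61116378-61292484), which RefSeq lists as Cdr1os with the synonym Cdr1as, had 306.07 TPM in replicate 1 and 258.25 TPM in replicate 2. It was the third highest of the selected genes in both libraries. One transcript of its 11, C230004F18Rik-206, took 87.38% and 88.03% of the gene's TPM in replicates 1 and 2. All 123 of its seed matches lay in exon 6 of 7 (chrX:61183248-61186174, 2927 bp), at a median spacing of 18 bp, which over the transcript of 3354 nt gave 36.7 matches per kb. The exon covers, on the opposite strand, the coding gene Cdr1 (chrX:61184005-61185558), which had 0.03 TPM in each library. Among all 141767 transcripts of the annotation, 13.8% hold at least 1 such match and 8 hold 10 or more. Of those 8, 3 belong to C230004F18Rik and the others reach at most 11. The tables do not separate reads of a circular RNA from those of the linear transcript with the same exon.

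1700020I14Rik (ENSMUSG00000085438.1, chr2:119594297-119607502), the mouse Cyrano gene, had 119.85 TPM in replicate 1 and 122.08 in replicate 2. Its long transcript 1700020I14Rik-202, of 8300 nt, carries the extensively paired site at bases 2935 to 2960 and took 83.11% and 82.06% of the gene's TPM. The shorter transcript took the remaining 16.89% and 17.94%. The site was thus on the major form in both libraries. AC026385.1, a selected gene whose end lies 183 bp before the Mir7b hairpin on the same strand, had 3.96 and 3.72 TPM (named for this position after its values were seen). Counts of each gene were compared between the libraries by an exact binomial test, which 22.7% of all genes tested passed. In C230004F18Rik the libraries differed, by a log2 ratio of replicate 2 over replicate 1 of -0.32 (adjusted p = 4.1e-101, exact binomial test), and in 1700020I14Rik they did not pass the test (-0.04, adjusted p = 0.072).

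2900097C17Rik (ENSMUSG00000102869.2, chr2:156388065-156392979), whose RefSeq synonyms include Norad, is an RNA known for binding Pumilio proteins, which repress messenger RNAs through a short motif. It had the second-highest level, 408.09 TPM in replicate 1 and 421.75 TPM in replicate 2. Its transcript 2900097C17Rik-202, of 4915 nt, took 90.41% and 87.05% of the gene and holds 11 matches to the Pumilio motif TGTANATA between bases 651 and 3526. Among the 8905 transcripts of 4 to 6 kb in the annotation, 41% hold at least 1 match and 3 hold 10 or more. C230004F18Rik-206 holds 0 and 1700020I14Rik-202 holds 1. The counts of 2900097C17Rik gave a log2 ratio between the libraries of -0.05 (adjusted p = 1.4e-05, exact binomial test), while the TPM was higher in replicate 2. Scaling to the ERCC spike-ins, synthetic RNAs added to each library, shifted the log2 ratios up by 0.11 and so turned the sign of this small one.

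Gm7292 (chr6:117716342-117718868) was the tenth highest selected gene, at 51.0 TPM and 53.38 TPM in replicates 1 and 2. Of the stretches of 31 bases in its longer transcript, 85.9% also occur in 2900097C17Rik. The deposited posterior standard deviation of its count, a measure of how uncertainly reads were assigned, was 2.9% and 2.94% of the count. How reads of the near-copies are divided bears on its level, and how far it does was not tested.

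**Figure D1:**
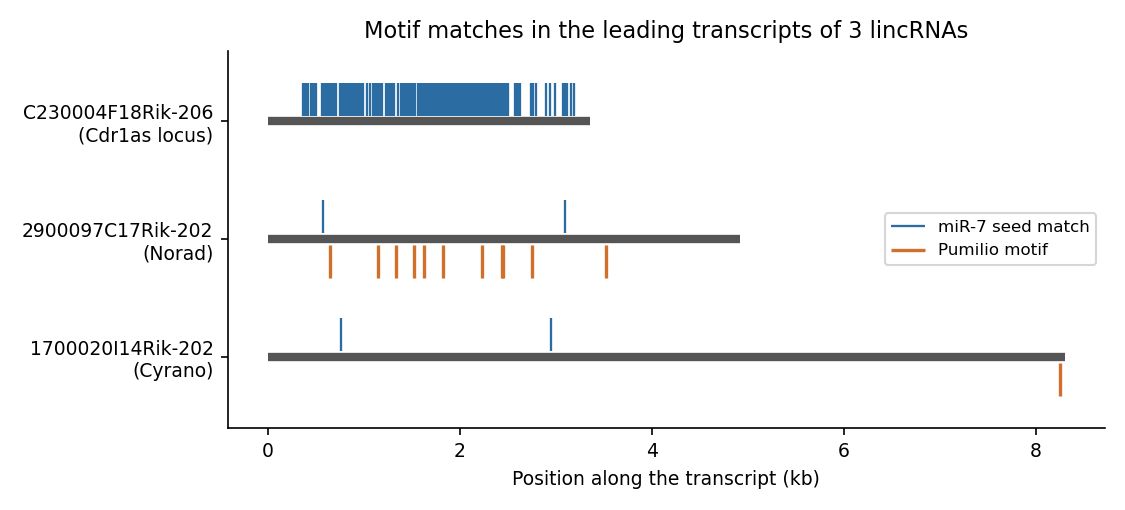
Positions of miR-7 seed matches (blue, above each bar) and Pumilio motif matches (orange, below) along the leading transcripts of 3 lincRNAs, drawn to scale in kb. The 123 miR-7 matches of C230004F18Rik-206 fill one exon, the 11 Pumilio matches of 2900097C17Rik-202 lie between bases 651 and 3526, and 1700020I14Rik-202 has 2 miR-7 matches over 8300 nt.

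BC1 is a short RNA of rodent neurons, made by RNA polymerase III, that is carried into dendrites and represses translation. Its sequence is shown because its length sets how its level reads. The entry Bc1 (ENSMUSG00000115783.1, chr7:144914470-144914637, plus strand, mm10) is 168 nt long, with its run of 23 A at bases 77 to 99 in capitals.
Bc1: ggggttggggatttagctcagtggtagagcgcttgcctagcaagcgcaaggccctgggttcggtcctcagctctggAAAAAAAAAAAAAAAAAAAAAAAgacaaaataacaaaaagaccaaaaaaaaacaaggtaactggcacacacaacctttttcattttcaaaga
Bc1 had 190.32 TPM in replicate 1 and 165.89 TPM in replicate 2, the fourth-highest level, from only 265 and 246 counts. In the transcript tables in the layout of kallisto it was listed at 0 in both libraries. Its place therefore depends on the table. The log2 ratio between the libraries was -0.25, with a 95% interval from -0.50 to 0.01, and did not pass the test (adjusted p = 0.17).

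The highest selected gene, Gm42418 (ENSMUSG00000098178.1, chr17:39846958-39848788), had 2672 TPM in replicate 1 and 3098.13 TPM in replicate 2. It stands on the list of entries related to ribosomal RNA, as does the left-out Gm26917, and is given apart for that reason. The 156 selected genes summed to 5391 ± 229 TPM (SD, n = 2 libraries), and to 2506 ± 72.4 TPM without Gm42418. The 11 leaders that were left out summed to 24327 ± 108 TPM (SD, n = 2). The selected genes took 0.739% of the gene counts in replicate 1 (exact 95% interval 0.7363% to 0.7425%, counting error only) and 0.751% in replicate 2 (0.7484% to 0.7544%). Without Gm42418 the shares were 0.419% (0.4167% to 0.4213%) and 0.388% (0.3861% to 0.3904%), so that the order of the libraries turned.

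Beneath these few genes the levels were low. The median of the selected genes was 5.21 ± 0.099 TPM (SD, n = 2), against 17.4 ± 0.495 TPM for the 11881 protein-coding genes that reached the same minimum. By mean TPM, 6 genes were at 100 or above, 33 from 10 to 100, 41 from 5 to 10 and 76 under 5. The genes just inside the minimum were 4930480K23Rik (2.0 and 2.15 TPM), 4930471C04Rik (2.01 and 2.13 TPM) and Gm42031 (2.01 and 2.71 TPM). Just outside it were Gm29650 (2.0 and 1.95 TPM), Lppos (2.14 and 1.95 TPM) and 1700047M11Rik (3.97 and 1.97 TPM). In all, 30 lincRNA-only genes reached it in 1 library alone. Most selected genes have no name that speaks of a function: 67 have symbols starting with Gm, 61 end in Rik and 6 carry the name of a clone.

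**Figure D2:**
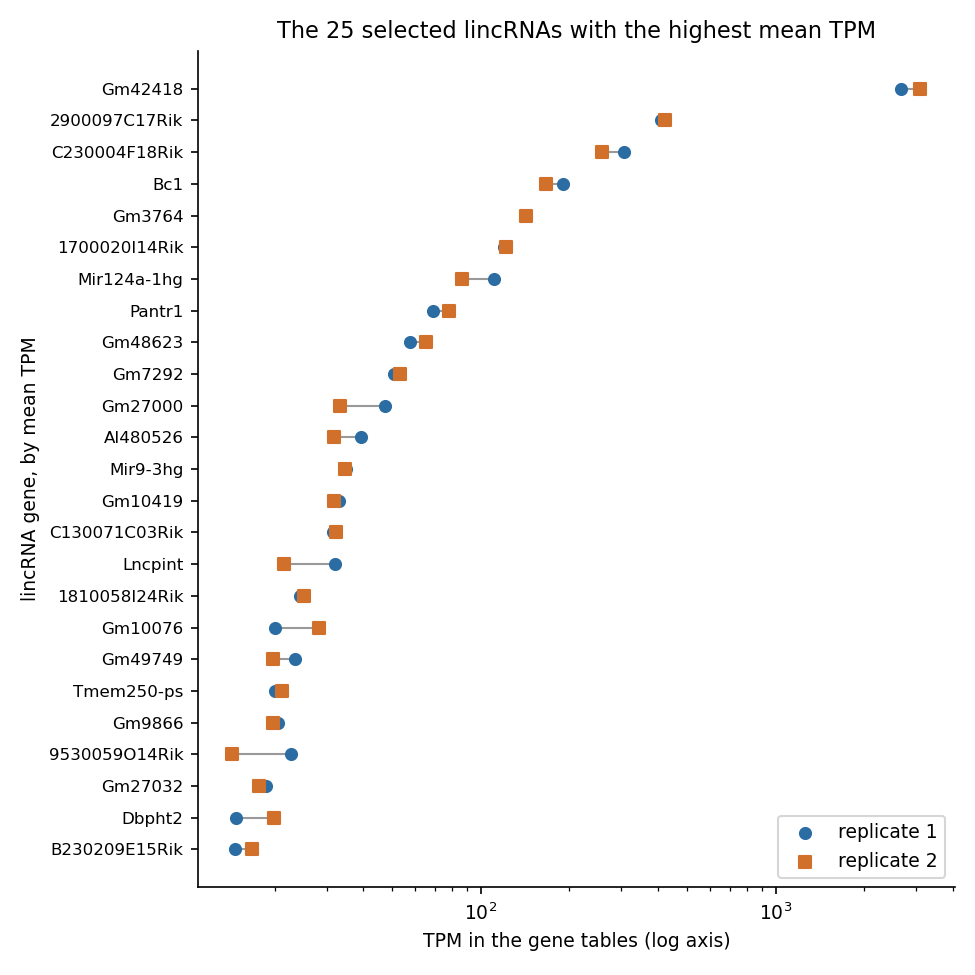
Level of the 25 selected lincRNAs with the highest mean, in TPM on a log axis, with replicate 1 as circles and replicate 2 as squares joined by a line. Gm42418 stands above the rest, and of the 24 pairs of neighbours in this order 11 have ranges that do not overlap.

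In this order by mean TPM, 11 of 24 neighbouring pairs had ranges over the 2 libraries that did not overlap. In the other 13 pairs the ranges overlapped, though some kept their order within each library, such as Gm27000 above AI480526. Behind the genes described above, Gm48623 had 57.45 and 65.43 TPM, Gm10419 33.07 and 31.79, 1810058I24Rik 24.34 and 25.11, Tmem250-ps 20.02 and 21.16, and Gm9866 20.55 and 19.78 TPM in replicates 1 and 2. Of these 5, Gm10419 alone passed the test between the libraries, with a log2 ratio of -0.17 (adjusted p = 0.0069, exact binomial test). Gm10419 overlaps the coding gene Gm42517, at a mean of 31.7 TPM, on the opposite strand, and whether their reads were kept apart was not tested. Gm49749 had 23.49 and 19.68 TPM and overlaps Pcnx on the same strand, a coding gene at 44.4 TPM, so their reads could be confused. 9530059O14Rik had 22.65 TPM in replicate 1 and 14.39 in replicate 2, a log2 ratio of -0.69 (adjusted p = 6.4e-28, exact binomial test).

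MicroRNA host genes were another group: 17 selected genes (10.9%) hold an annotated microRNA on the same strand, against 65 (1.11%) of all lincRNA-only genes. In 15 of the 17 it has a name. All 3 loci of miR-9, a microRNA of neural progenitors and neurons whose sequence is given above, lie inside selected genes. Mir9-1 (chr3:88215598-88215686) lies in Gm3764, at 142.12 and 142.02 TPM. Mir9-3 (chr7:79505264-79505353) lies in Mir9-3hg, at 34.88 and 34.71 TPM. Mir9-2 (chr13:83738814-83738885) lies in C130071C03Rik, at 31.53 and 32.22 TPM. The first host was thus far above the other 2, whose values in the libraries differed from each other by little. The identical mature sequence cannot be assigned to a host from these tables.

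The loci of miR-124, among the best-known microRNAs of neurons, followed a like arrangement. Mir124a-1hg, the host of Mir124a-1, had 110.99 TPM in replicate 1 and 86.64 in replicate 2. Mir124-2hg, the host of Mir124a-2, had 14.6 and 11.68 TPM. The third locus, Mir124a-3 (chr2:180894040-180894107), overlaps the first 3 bp of Gm27032, which had 18.76 and 17.71 TPM. Both miR-124 hosts were lower in replicate 2, with log2 ratios of -0.46 (adjusted p = 3.6e-47) and -0.40 (adjusted p = 3.9e-05, exact binomial test).

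Other hosts carried microRNAs named above or arranged in clusters. Mir670hg, with Mir129-2 and Mir670, had 6.75 and 7.88 TPM, and C78859, with Mir138-2, had 7.25 and 5.14 TPM. MiR-138 is known as a microRNA of dendritic spines. A230057D06Rik holds 11 microRNA genes, 7 of them named members of the Mir344 family, and had 8.6 and 6.85 TPM. 6720427I07Rik, with Mirlet7d, Mirlet7f-1 and Mirlet7a-1, had 3.35 and 2.84 TPM. The lowest host was 4833445I07Rik, with Mir191 and Mir425, at 2.42 and 2.11 TPM. Gm27000, with Mir1906-2, had 47.3 and 33.35 TPM, but the posterior standard deviation of its count was 8.26% and 9.4% of the count. C230004F18Rik also spans a microRNA gene without a name, Gm24396. The remaining hosts, 5330434G04Rik (Mir325), Ftx (Mir421 and Mir374b), 2900076A07Rik (Mir1839), Gm20754 (Gm24544) and E130102H24Rik (Mir101a), had mean levels from 3.59 to 11 TPM.

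Among 66 entries on a list of lncRNAs with a described role, 15 were selected, 13 are lincRNA-only genes below the minimum, 30 have another biotype, 2 (Rmst and Mirt1) are lincRNA genes with a transcript of another type and 6 are not symbols of the tables. Of these 6, Norad, Cyrano and Oip5os1 are other names of the selected 2900097C17Rik and 1700020I14Rik. The list was drawn up with earlier results of these data known. Ftx and Jpx, non-coding genes of the X-inactivation centre that act on Xist, had 10.13 and 7.52 TPM and 6.15 and 5.13 TPM in these males. Lncpint, an RNA induced by p53, had 32.06 and 21.46 TPM. Pvt1, the neighbour of Myc, had 11.47 and 11.1 TPM. Epb41l4aos had 6.58 and 9.76 TPM, and A330008L17Rik 3.91 and 3.21 TPM.

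Position relative to coding genes was not used in the selection. Of the 156 selected genes, 25 (16%) start within 1 kb of the start of a protein-coding gene on the opposite strand and point away from it. Of all 5844 lincRNA-only genes, 249 (4.26%) do. Those 5844 genes had a median of 0 TPM and a median length of 862 nt, against 1603 nt for the selected genes. They are also the background for microRNA hosts and for genes behind a coding gene. The part of level and length in these 3 differences was not tested. Such head-to-head pairs are commonly transcribed from a shared promoter region. In 22 of 25 pairs the coding partner was higher than the lincRNA in both libraries, and the median log2 ratio of partner over lincRNA was 3.09 over the 24 pairs whose partner was not listed at 0. Coding genes past the TPM minimum also had a higher median than the selected genes, 17.4 against 5.21 TPM. The order within the pairs was not tested against this general difference and is not read as a trait of the pairs.

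Pantr1 and AI480526 were exceptions. Pantr1 (chr1:42590782-42694842), which starts 926 bp from Pou3f3, a transcription factor of the developing cortex and hippocampus, had 68.87 and 78.38 TPM, and Pou3f3 had 22.29 and 29.15 TPM. AI480526, 527 bp from the histone methyltransferase gene Setd1b, had 39.39 and 31.71 TPM against 13.1 and 14.09 TPM. In both pairs every value of the lincRNA was above every value of the partner. In the remaining exception, 4930471C04Rik, the partner Prss52 was listed at 0 in both libraries.

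The more usual order held in the next pairs. 5031425E22Rik had 12.24 and 11.13 TPM beside Kmt2e, a gene of chromatin regulation, at 40.55 and 46.21 TPM. Gm5113 had 7.75 and 8.33 TPM beside the zinc finger gene Zfp146 at 20.28 and 20.93 TPM. 4930570G19Rik had 7.0 and 8.74 TPM beside Negr1, a neuronal adhesion molecule, at 53.61 and 61.03 TPM. The partners were thus 3.71, 2.56 and 7.28 times as high by mean TPM. 5033430I15Rik had 4.98 and 5.73 TPM beside Atxn1, the ataxin 1 gene, at 52.06 and 50.5 TPM. Gm17586 with Mafg, Gm16701 with Fam78b and 4632404H12Rik with Ube2q1 had partners 7.88, 2.95 and 9.46 times as high.

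**Figure D3:**
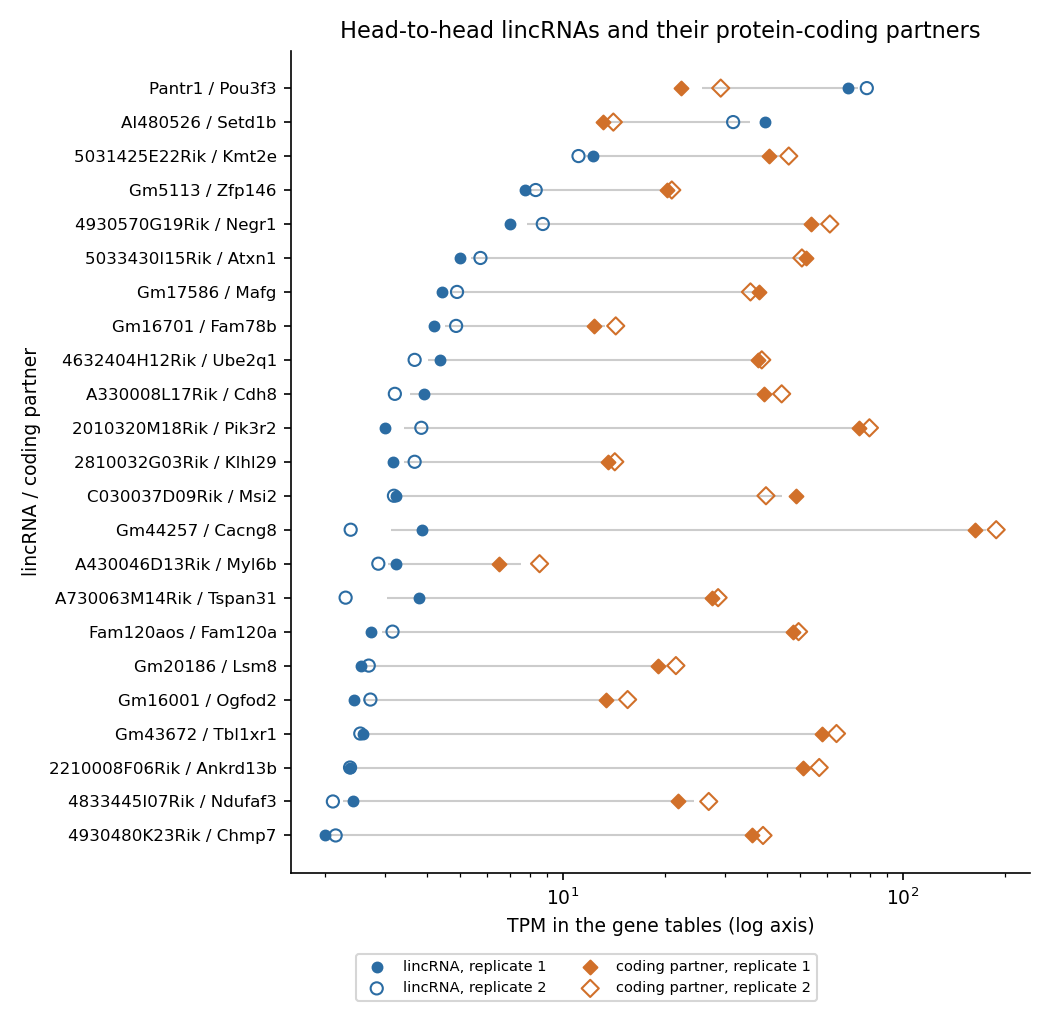
Level in TPM (log axis) of head-to-head lincRNAs (blue circles) and their protein-coding partners (orange diamonds), filled for replicate 1 and open for replicate 2, with a grey line between the means. The partner is to the right in 21 of the 23 pairs drawn, with Pantr1 and AI480526 the other way; the pair whose partner is listed at 0 and 1 pair not reported here are not drawn.

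The promoters of the head-to-head genes held more CG dinucleotides than those of the other selected genes. RefSeq promoter windows of 300 bases were matched to 78 of the 156 genes, 97 windows in all (GRCm38.p6). The 15 head-to-head windows, of 14 genes, had a median of 38 CG dinucleotides and 71.3% G or C, the other 82 windows had 8.5 and 53.3%, and all 32851 windows of the table had 7 and 52.7%. Windows of protein-coding genes had 13 and 56.3%. The GC box GGGCGG, searched on both strands, was in 60% of head-to-head windows, 32.9% of the other selected windows and 35.7% of all. TATAAA was in 0 of the 15 and in 17.1% and 13.6% of the others. These are descriptions of letters in a window, with no test.

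The windows of the 2 pairs with the highest lincRNA level in which both annotated starts lie inside the window show how these windows vary. The letters run in the direction of the lincRNA, with CG in capitals. In the first (chr7:30169625-30169924, plus strand) Zfp146 starts at base 126 and runs leftward, and Gm5113 starts at base 251. In the second (chr3:156561638-156561937, minus strand) Negr1 starts at base 144 and 4930570G19Rik at base 192.
Gm5113: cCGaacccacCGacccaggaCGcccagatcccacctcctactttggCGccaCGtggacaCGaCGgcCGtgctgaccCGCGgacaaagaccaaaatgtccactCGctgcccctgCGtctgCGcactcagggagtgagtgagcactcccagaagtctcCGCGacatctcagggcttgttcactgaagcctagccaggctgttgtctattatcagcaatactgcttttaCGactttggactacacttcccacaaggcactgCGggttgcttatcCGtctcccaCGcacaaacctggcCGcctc
4930570G19Rik: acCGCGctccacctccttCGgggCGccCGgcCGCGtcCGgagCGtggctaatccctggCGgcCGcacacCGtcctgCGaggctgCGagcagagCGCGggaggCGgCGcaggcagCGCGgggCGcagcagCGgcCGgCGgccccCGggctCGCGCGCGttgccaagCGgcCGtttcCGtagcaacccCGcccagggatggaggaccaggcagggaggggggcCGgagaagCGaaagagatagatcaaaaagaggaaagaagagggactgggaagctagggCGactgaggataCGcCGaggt
The first holds 20 CG dinucleotides and 59% G or C, the second 38 and 71.3%. A further window of 4930570G19Rik (chr3:156561697-156561996, minus strand) overlaps the one shown and also holds both starts. It has 37 CG dinucleotides and 74.7% G or C, and both windows of this gene enter the medians above.

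A second arrangement was a lincRNA just behind a coding gene. On the same strand, 22 selected genes (14.1%) begin within 5 kb of the end of a protein-coding gene, against 188 (3.22%) of all lincRNA-only genes. The upstream gene was higher by mean TPM in 19 of 22, which again was not tested against the generally higher level of coding genes. 4933404O12Rik begins 3742 bp behind Ift22, a gene of transport within cilia, and had 3.93 and 5.43 TPM against 32.84 and 34.48 TPM. The microRNA host C78859 begins 4931 bp behind Nup93, a gene of the nuclear pore, and had 7.25 and 5.14 TPM against 22.96 and 20.59 TPM. In both cases the values of the upstream gene lay above those of the lincRNA in each library. Whether reads of such genes come from transcripts that run past the end of the upstream gene was not tested. The count depends on the gap: 6 genes begin within 1 kb and 29 within 10 kb. In all, 24 selected genes overlap a coding gene, 16 on the opposite and 9 on the same strand, with Gm5914 counted in both. The share of all lincRNA-only genes with such an overlap is not given here, so nothing is read from this count.

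Some selected genes lie close together. Within 100 kb of each other lie 16 of them, in 7 groups, a count without a matching share over all lincRNA-only genes. In the imprinted Dlk1-Dio3 region on chromosome 12, Gm26945 had 9.8 and 6.23 TPM and B830012L14Rik 5.21 and 3.07 TPM, with log2 ratios of -0.70 and -0.81. The left-out Meg3 and Mirg of the same region had log2 ratios of -0.51 and -0.23. Between Snrpn and Ndn on chromosome 7, in the imprinted region of the Prader-Willi syndrome, lie 4 selected genes on the minus strand, from Gm44644 (chr7:60915550-60922910) through A230006K03Rik and B230209E15Rik to A230057D06Rik (chr7:61704519-61928690). Their mean levels were 2.34, 2.29, 15.7 and 7.72 TPM in the gene tables. For A230006K03Rik the tables differ: it had 2.14 and 2.43 TPM in replicates 1 and 2 there, and 20.6 and 15.3 TPM in the transcript tables in the layout of kallisto. Only A230057D06Rik of these 4 passed the test between the libraries (log2 ratio -0.43, adjusted p = 5.2e-05). On the X chromosome lay 6 selected genes and on the Y chromosome 0.

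Most selected genes have 2 or more annotated transcripts. Of these 94 genes, 68 had a transcript whose share of the gene, averaged over the 2 libraries, was over 50%. The median share of the leading transcript was 59.9%. In a gene with 2 transcripts the leading one cannot fall below 50%, so such genes enter this count almost by arithmetic. The 94 genes were not divided by their number of transcripts, and nothing is read from the count. Both libraries had the same leading transcript in 74 of 94 genes, and both kinds of transcript table in 59 of 93. It had a single exon in 37 of the 156 genes and more in 119, with a median length of 1437 nt. Lncpint has the most annotated transcripts, 16. The posterior standard deviation was 0 in both libraries in 127 genes and over 5% of the count in 7. A value of 0 does not show that the tables give the same level, since Bc1, Gm20186 and A230006K03Rik have it too.

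The kind of table moved the levels. In the transcript tables in the layout of kallisto, summed per gene, the median ratio to the gene tables was 1.66 for the selected genes and 1.57 for the protein-coding genes. The 4 genes furthest above, chosen after their values were seen, were Gm20186, A230006K03Rik, Gm42031 and Gm27000, at 10.1, 7.87, 6.29 and 5.22 times their level in the gene tables. Gm20186 had 2.56 and 2.69 TPM in the gene tables and 25.8 and 27.5 TPM in the others, and Gm27000 had 47.3 and 33.35 against 231 and 190 TPM. In all, 7 genes were at least 4 times as high there and 13 were lower than in the gene tables. Besides Bc1, 3 genes were listed at 0 there in both libraries: Gm10076, Gm49207 and Gm45846, which had 20.08 and 28.2, 11.8 and 9.86, and 2.04 and 2.32 TPM in the gene tables.

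**Figure D4:**
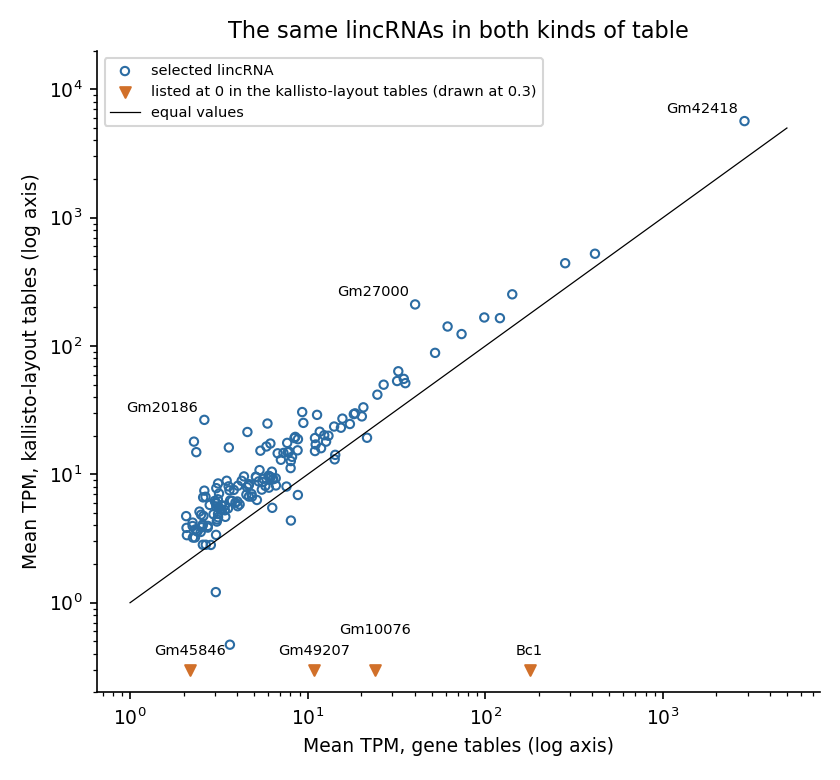
Mean TPM of each selected gene in the gene tables (horizontal, log axis) and in the transcript tables in the layout of kallisto summed per gene (vertical, log axis), with a line of equal values. Most genes lie above the line at a median ratio of 1.66, Gm20186 lies furthest above it at 10.1 times, and the 4 genes listed at 0 are drawn at the bottom.

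The libraries were compared gene by gene by the exact binomial test, two-sided, after TMM scaling of the counts. It asks whether 2 libraries differ by more than counting noise, not whether conditions differ, and the labels do not say how far the spread between the libraries is technical. Of the 156 selected genes, 36 (23.1%) passed at an adjusted p of 0.05, against 22.7% of all 18332 genes tested. In direction, 8 were higher in replicate 2 (5.13%, against 12.5% of all genes) and 28 higher in replicate 1 (17.9%, against 10.2%). With scaling to the total of the ERCC spike-ins the split was 21 and 21 of 42, while 35.5% of all genes passed. The median log2 ratio over all genes was then 0.11, since this scaling moves all genes alike. The split thus depends on the scaling. All genes were not divided by direction there, so the even split does not show that the selected genes lost their lean relative to all genes. Of the 11881 protein-coding genes with the same TPM minimum, 27.4% passed. With a ratio of 2-fold or more, 0 of 156 passed, against 0.194% of those coding genes and 1.85% of all genes; the minimum in both libraries itself limits large ratios, so nothing is read from this count. The median log2 ratio was -0.05, against 0.00 over all genes. With an assumed coefficient of variation of 0.1 between libraries, edgeR's exact test called 0 selected genes (18 at an unadjusted p under 0.05). It called 0.944% of all genes tested, so 0 of 156 is near that share.

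Among selected genes past the test whose mean count was 50 or more, the largest ratios toward replicate 1 were in B830012L14Rik, 5330434G04Rik, Gm44257, 4933412O06Rik and Lncpint. B830012L14Rik had 463 counts in replicate 1 and 291 in replicate 2, a log2 ratio of -0.81 (95% interval -1.03 to -0.59, adjusted p = 1.3e-12, exact binomial test). 5330434G04Rik, the host of Mir325, had 815 and 535 counts and a log2 ratio of -0.75. Lncpint had 484 and 325 counts and a log2 ratio of -0.71 (-0.92 to -0.51, adjusted p = 1.1e-10, exact binomial test). Gm44257 and 4933412O06Rik had log2 ratios of -0.74 and -0.72 from 105 and 69 and from 78 and 52 counts. Gm8066 had a larger ratio but only 47 and 26 counts, and is named after its values were seen.

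Toward replicate 2 the largest were in Gm17750, Gm10076, Dbpht2, 4933404O12Rik and Pantr1. Gm17750 had 93 counts in replicate 1 and 166 in replicate 2, a log2 ratio of 0.69 (0.32 to 1.08, adjusted p = 0.0016, exact binomial test). Gm10076 had 115 and 172 counts and a log2 ratio of 0.44 (adjusted p = 0.049), with posterior standard deviations of 9.4% and 7.68% of the count. Dbpht2 had 1565 and 2234 counts and a log2 ratio of 0.37 (0.28 to 0.47, adjusted p = 1.1e-13, exact binomial test). 4933404O12Rik and Pantr1 had log2 ratios of 0.32 and 0.28. For Mir9-3hg the count and the TPM went apart: its counts were 750 and 961, a log2 ratio of 0.22 (adjusted p = 0.012, exact binomial test), while its TPM values were 34.88 and 34.71.

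Many marker genes of cell types and nearby tissues differed between the same libraries, in which 22.7% of all genes tested passed. All 7 markers of myelinating oligodendrocytes passed the test and summed to 1638 TPM in replicate 1 and 874 TPM in replicate 2, a median log2 ratio of -1.18. All 4 markers of thalamus passed, at 49.1 and 27.7 TPM, and 3 of the 4 tested markers of choroid plexus, at 89 and 47 TPM. Markers of immature neurons summed to 83.6 and 119 TPM and all 4 passed. All 3 markers of red blood cells and all 3 of newly formed oligodendrocytes passed too. So did 3 of 5 for excitatory neurons, 3 of 4 each for interneurons and astrocytes, and 2 of 3 each for microglia and endothelial cells. For the cell cycle 2 of 4 passed, and for oligodendrocyte precursors 0 of 2. The part of these in the differences of the selected genes was not tested.

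**Figure D5:**
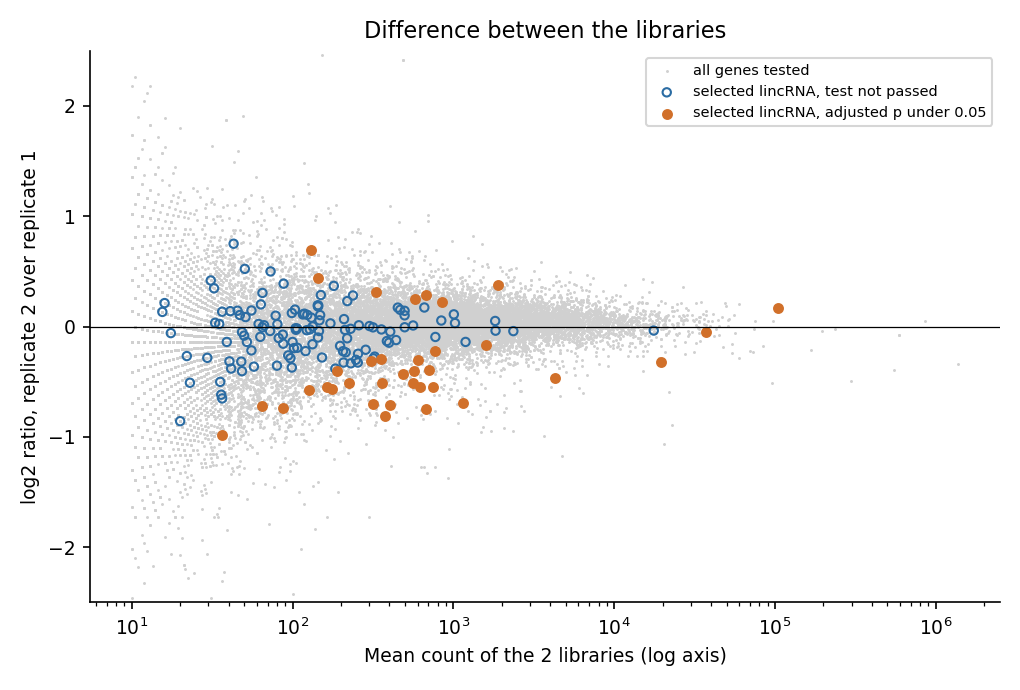
Log2 ratio of replicate 2 over replicate 1 (vertical) against the mean count of the 2 libraries (horizontal, log axis) for all genes tested (grey) and the selected lincRNAs, filled where the adjusted p is under 0.05. All 156 selected genes lie inside the plot, 28 filled points lie below 0 and 8 above it, and 54 other genes lie beyond the vertical range.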

How the data were processed

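Total RNA of the hippocampus was measured in 2 libraries of 1 group. Expected counts (estimated reads per gene, not normalised) and TPM per gene were deposited by the authors. Transcript tables were deposited in the layouts of RSEM, which also gives each transcript's share of its gene in percent, and of kallisto, per the file headers. The posterior standard deviation of the count is a deposited signal-like value, per the file headers. Notes deposited by the authors name mm10 and GENCODE M21. The aligner and quantifier versions were not given in the sources used here.

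Members and lists were chosen with earlier results of these data known. Expected counts were rounded, and entries without a gene name (2.67e-05% and 9.4e-06% of the counts) were left out. Levels are given as mean ± SD over 2 libraries. Libraries were compared with an exact binomial test (scipy 1.17.1) after TMM scaling (edgeR 4.0.16), for a mean count of at least 10, with p-values adjusted by Benjamini-Hochberg over all tested genes and a prior count of 0.5 in the log2 ratio. On counts simulated with counting noise alone and 200 genes changed 2-fold, it recovered 77.5%. Its behaviour with added spread between libraries was not tested. Intervals are exact Clopper-Pearson at 95% and cover counting error only. Setting 1 library against the other leaves no residual degrees of freedom, so edgeR's quasi-likelihood test was not used. Alternatives were other scalings (DESeq2 1.42.0 size factors among them), filters, tables and distances.

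Named genes are the 25 with the highest mean TPM, the selected genes of the role list, the selected microRNA hosts, the 5 largest log2 ratios per direction among genes past the test whose mean count was 50 or more, the 10 highest head-to-head genes with partners (1 pair is not reported here), 3 genes on each side of the TPM minimum, and coding neighbours by position. Sequences came from the GENCODE M21 transcripts and, for microRNAs and promoters, from RefSeq (GRCm38.p6).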

Additional observations from a re-analysis of the deposited data

How the results depend on the processing

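The number of selected genes followed the minimum and the table: 252 at a minimum of 1 TPM, 77 at 5 TPM, 367 in the kallisto-layout tables (149 of them shared with the 156) and 237 with TPM rescaled without structural RNA. Their median TPM was 8.53 in the kallisto-layout tables and 9.63 rescaled, and their summed TPM 9533 and 9965. The sum was 2506 without Gm42418, a choice made after seeing the data. With 1 library left out, the number was 163 to 179, the median 5.13 to 5.28 TPM, the sum 5229 to 5552 TPM and the genes with a transcript over 50% 66 to 70. The differing genes numbered 32 to 42 under the scalings, filters and tables tried, and 0 with edgeR's exact test. The share of all genes that passed was 22.7% in the main setting. It was 13.6% with no filter on low counts, 35.5% with ERCC scaling and 0.944% with edgeR's exact test. Dropping the filter raised all genes tested from 18332 to 28277, adding genes of low count, but left the selected genes tested at 156. The fall to 13.6% is therefore not set against the selected genes. Genes behind a coding gene numbered 6 at a gap of 1 kb. In all, 30 of 41 recomputed values stayed within 1.5 times the count or 1 SD of the level. Some of them could hardly do otherwise. A sum from 1 of 2 libraries always lies within 1 SD of their mean, and the count of 2-fold differences was 0 under every setting. That total is therefore no measure of how robust the results are. No paired analysis was possible because the samples form 1 group. Depth limits the lowest genes: the smallest selected counts were 14 and 15.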
